A study of Mus musculus with 6 samples.

Results

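The Hox genes of the 4 clusters were described here by the sites at which EZH2 and H3K27me3 were called across them in mouse embryonic fibroblasts. The 38 genes considered were 10 of Hoxa, 10 of Hoxb, 9 of Hoxc and 9 of Hoxd. Members were all listed peaks that touched a window set around each cluster in build mm9: chromosome 6 from 52080001 to 52230000 for Hoxa, chromosome 11 from 96030001 to 96250000 for Hoxb, chromosome 15 from 102720001 to 102890000 for Hoxc and chromosome 2 from 74480001 to 74620000 for Hoxd. These windows held 20 of the 3449 EZH2 peaks. They also held 7 of the listed H3K27me3 peaks, of which 948 overlapped EZH2 over the whole genome and 278 did not. All 38 genes were found in the RefSeq gene table, which is of another build, GRCm38. It was therefore used only for the names and order of the genes, and no peak was assigned to a single gene.

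The EZH2 sites came from EED-knockout fibroblasts that re-expressed wild-type EED, and the H3K27me3 sites from the same knockout line expressing EED R302S. Per the labels' protocols, the knockout was made with Cre in floxed cells and is 1 clone, so both groups lack their own EED and carry a lentiviral copy. Each group was 1 library of chromatin cut by micrococcal nuclease and precipitated with 1 antibody. The other 4 of the 6 samples were not analysed here. Antibody and EED form changed together between the lists and cannot be told apart, and with 1 library each no test was possible. Both lists give positions without height or score, so depth is unknown, and a site that is not listed may be weak and not empty. The fibroblast identity of the cells could not be checked, since no expression was measured.

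Hox genes encode homeodomain transcription factors that set position along the body axis. Within a cluster they lie in the order of their paralogue numbers, with paralogue 13, the most posterior, at the 5′ end and the low-numbered, anterior genes at the 3′ end. Polycomb repressive complex 2 (PRC2) is a classical repressor of these clusters. Its catalytic subunit EZH2 methylates lysine 27 of histone H3, and binding of the product, H3K27me3, by the subunit EED stimulates this activity. In mammals PRC2 sites are mostly rich in the dinucleotide CpG. By the RefSeq order the paralogue 13 gene lies at the higher coordinates in Hoxa and at the lower coordinates in Hoxb, Hoxc and Hoxd. Distances below are counted from the window edge on that side.

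To show what sequence lies at the 2 ends of a cluster, the 250 bases before the start of a paralogue 13 gene and of the lowest-numbered gene considered are printed for Hoxd and Hoxa, from RefSeq (GRCm38.p6), 5′ to 3′ in the direction of the gene. Capitals mark each CpG. Hoxd genes lie on the plus strand and Hoxa genes on the minus strand.
Hoxd13: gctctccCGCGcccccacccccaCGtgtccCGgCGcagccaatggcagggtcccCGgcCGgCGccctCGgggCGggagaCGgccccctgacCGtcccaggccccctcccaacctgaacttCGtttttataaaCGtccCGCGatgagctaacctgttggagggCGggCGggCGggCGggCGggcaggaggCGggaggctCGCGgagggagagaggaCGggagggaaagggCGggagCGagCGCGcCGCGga
Hoxd1: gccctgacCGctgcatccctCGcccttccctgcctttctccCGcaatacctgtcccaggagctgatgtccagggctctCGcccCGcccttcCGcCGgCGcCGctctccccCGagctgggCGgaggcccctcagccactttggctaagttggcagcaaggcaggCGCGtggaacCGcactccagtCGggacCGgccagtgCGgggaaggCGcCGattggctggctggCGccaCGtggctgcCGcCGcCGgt
Hoxa13: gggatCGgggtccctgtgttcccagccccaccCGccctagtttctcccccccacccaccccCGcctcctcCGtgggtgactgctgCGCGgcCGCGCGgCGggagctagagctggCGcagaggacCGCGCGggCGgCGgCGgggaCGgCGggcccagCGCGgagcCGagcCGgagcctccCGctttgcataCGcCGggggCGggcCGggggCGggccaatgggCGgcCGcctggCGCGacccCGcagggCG
Hoxa2: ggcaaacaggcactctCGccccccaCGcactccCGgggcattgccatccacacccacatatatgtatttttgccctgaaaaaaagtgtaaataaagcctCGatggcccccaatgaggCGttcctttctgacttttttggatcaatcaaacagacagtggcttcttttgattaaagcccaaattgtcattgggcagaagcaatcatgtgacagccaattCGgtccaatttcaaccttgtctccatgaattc

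Hoxd13, which patterns the digits, had 31 CpG in these 250 bases and Hoxd1 had 24. Hoxa13, its paralogue in the limb and genital tract, had 35 and Hoxa2, a patterning gene of the hindbrain and neural crest, had 6. The Hoxa13 and Hoxd13 sequences held the most CpG of the 22 genes whose promoter was in the table, which were 9 of Hoxa, 9 of Hoxd, 3 of Hoxb and 1 of Hoxc. Promoters of Hoxb13 and Hoxc13 were not analysed here, so this says nothing of those paralogue 13 genes. Hoxa13 had more CpG than 96.9% of the 17492 protein-coding genes in the table and Hoxd13 more than 94.4%. The 9 Hoxd genes with an entry ranged from 3 in Hoxd4 to 31, with a median of 12, and 9 of the 10 Hoxa genes ranged from 3 in Hoxa9 to 35, with a median of 13.5. The median over protein-coding genes was 10 (quartiles 3 and 18.5), so high CpG counts were not shared by all genes of either cluster. Over the 38 genes the check is void, because only 57.9% had an entry.

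EZH2 peaks covered 188.8 kb of the 680.0 kb in the 4 windows, which is 27.8%, and H3K27me3 peaks covered 59.8 kb, which is 8.79%. The 20 EZH2 peaks made up 0.580% of the peaks in their list and 1.58% of its length. Hoxd was the most densely covered window, with 56.6 kb of EZH2 in 140.0 kb (40.4%) from only 2 peaks. Hoxc followed with 63.0 kb in 170.0 kb (37.1%) from 9 peaks. In Hoxa 6 peaks covered 43.8 kb of 150 kb (29.2%), and in Hoxb 3 peaks covered 25.4 kb of 220.0 kb (11.5%). The order of the clusters by H3K27me3 was different: 33.8 kb in Hoxd, 16.4 kb in Hoxb, 9.6 kb in Hoxa and none in Hoxc.

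**Figure D1:**
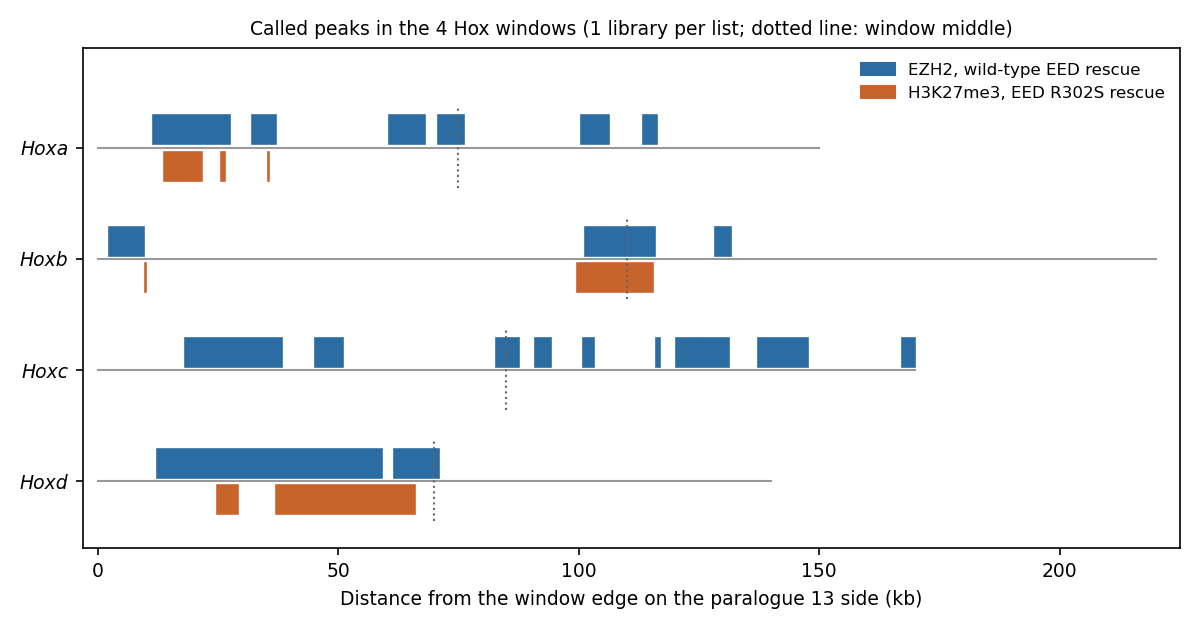
Called EZH2 peaks of the wild-type EED rescue (above each line) and H3K27me3 peaks of the EED R302S rescue (below) in the 4 Hox windows, drawn to scale in kb from the window edge on the paralogue 13 side; the dotted line is the window middle. Hoxd has 2 EZH2 peaks close together and 2 H3K27me3 peaks, whereas Hoxc has 9 EZH2 peaks and no H3K27me3 peak.

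Set beside fixed windows of the same length laid along the chromosomes that hold EZH2 peaks, few had as much EZH2 as the Hox windows. At least the cover of Hoxd was reached by 3 of 18667 windows, that of Hoxc by 6 of 15374, that of Hoxa by 16 of 17424 and that of Hoxb by 64 of 11882. In windows that held any EZH2 the median cover was 3.0 to 3.2 kb. H3K27me3 cover as high as in Hoxd was found in 10 such windows, as high as in Hoxb in 58 and as high as in Hoxa in 160. The fixed windows also ran over the Hox clusters. The Hoxd window coincides with a fixed window, so it is itself among the 3 and the 10 counted for Hoxd. For the other clusters, the fixed windows cut domains at arbitrary points while the Hox windows were placed around their clusters. These ranks are therefore a description only.

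In Hoxd, EZH2 formed a nearly unbroken domain on the side of Hoxd13. The cluster patterns the limbs and genitalia, with Hoxd13 to Hoxd10 toward the 5′ end and Hoxd4, Hoxd3 and Hoxd1 toward the 3′ end. The first EZH2 peak (74492201 to 74539200) was 47.0 kb wide and lay 12.2 to 59.2 kb from the edge. It was the widest of all 3449. The second (74541401 to 74551000) was 9.6 kb wide and followed after a gap of 2.2 kb, which is the smallest gap in the list and occurs 30 times in it. Together they filled 96.3% of the 58.8 kb between their outer edges, and the remaining 69.0 kb of the window, on the Hoxd1 side, had no EZH2 peak.

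H3K27me3 in R302S cells lay inside that domain and away from its outer edges. A peak of 4.6 kb (74504601 to 74509200) lay wholly inside the wide EZH2 peak, 12.4 kb from its edge on the Hoxd13 side. A second H3K27me3 peak (74516801 to 74546000) was 29.2 kb wide, the 7th widest of its list. It crossed the 2.2 kb gap between the EZH2 peaks, shared 22.4 kb with the first and 4.6 kb with the second, and ended 5.0 kb before the edge of the second. Of the 56.6 kb of EZH2 in Hoxd, 31.6 kb (55.8%) was inside H3K27me3 peaks. In the first 12.4 kb of the EZH2 domain on the Hoxd13 side, and in 7.6 kb between the H3K27me3 peaks, no H3K27me3 was listed.

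Hoxc had the largest number of EZH2 peaks of the 4 windows and no H3K27me3 peak in R302S cells. This cluster runs from Hoxc13, known for its part in hair and nails, to Hoxc4 and acts mainly in the trunk. Its widest EZH2 peak (102738001 to 102758400) was 20.4 kb wide, lay 18.0 to 38.4 kb from the edge on the Hoxc13 side and ranked 18th of 3449. The next peak toward Hoxc4 (102765001 to 102771000) was 6.0 kb wide, and after it 31.6 kb held none. The next 4 decreased in width toward Hoxc4: 5.0 kb (102802601 to 102807600), 3.4 kb (102810801 to 102814200), 2.4 kb (102820801 to 102823200) and 1.2 kb (102835801 to 102837000). Toward Hoxc4 lay peaks of 11.2 kb (102840001 to 102851200) and 10.4 kb (102857201 to 102867600), so wide peaks stood near both ends. The last, of 5.4 kb (102887001 to 102892400), ran past the window edge.

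The nearest H3K27me3 peak to the Hoxc window (102573401 to 102579400, 6.0 kb wide) lay 140.6 kb away on the Hoxc13 side. The 9 EZH2 peaks were 158.6 to 307.6 kb from it. With 0 of 9 peaks overlapping, the 95% Wilson interval reached 29.9%. Elsewhere on chromosome 15, 47 of 237 EZH2 peaks overlapped H3K27me3 (19.8%), and within 2 Mb of the window 5 of 25 did (20%). The interval for Hoxc contains these shares, so against them fewer overlapping peaks cannot be read from the count. Both shares are over peaks of all widths, however, and are not matched to Hoxc. Its peaks had a median width of 5.4 kb, against 2.4 kb over the whole list. In that list 56.5% of EZH2 peaks of at least 4.2 kb overlapped H3K27me3, against 17.8% of narrower ones. Hoxc alone was not compared with peaks of like width.

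In Hoxa, EZH2 peaks were spread over the window and H3K27me3 was listed at the Hoxa13 side only. Hoxa13, Hoxa11 and Hoxa10, at that side, act in the limb and reproductive tract, and Hoxa2 to Hoxa5 in the hindbrain, neck and thorax. The EZH2 peak nearest to the Hoxa13 side (52202401 to 52218600) was 16.2 kb wide, 40th of 3449. It held 2 H3K27me3 peaks, of 8.2 kb (52208201 to 52216400) and 1.0 kb (52203601 to 52204600), which made up 56.8% of its length. The neighbouring EZH2 peak (52193001 to 52198200, 5.2 kb) held an H3K27me3 peak of 0.4 kb (52194401 to 52194800), the smallest width in that list. All 3 lay wholly inside EZH2 peaks.

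The other 4 EZH2 peaks of Hoxa had no H3K27me3 peak. They formed 2 pairs farther toward Hoxa2. The first pair was 7.6 kb (52162001 to 52169600) and 5.6 kb (52153801 to 52159400) wide, separated by 2.6 kb. The second was 6.0 kb (52123601 to 52129600) and 3.2 kb (52113601 to 52116800) wide, separated by 6.8 kb. Their distances to the nearest H3K27me3 peak were 24.8 to 77.6 kb. These 4 peaks were narrower than the one next to the Hoxa13 side, but 3 of them were wider than the 5.2 kb peak that did hold H3K27me3. Of the EZH2 length in Hoxa, 21.9% was inside H3K27me3 peaks.

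Beyond the Hoxa13 edge of the window both lists continued. EZH2 peaks of 1.6 kb (52255401 to 52257000) and 5.4 kb (52260001 to 52265400) lay 25.4 and 30 kb outside. An H3K27me3 peak of 15.2 kb (52257201 to 52272400) enclosed the second of them and had 35.5% of its length inside EZH2. It was wider than any H3K27me3 peak inside the Hoxa window. In RefSeq order the neighbours of Hoxa13 on that side are the noncoding genes Hottip and Evx1os and the homeobox gene Evx1. In the 50 kb flanks of the Hoxb and Hoxd windows neither list had a peak, and in those of Hoxc only the end of the last EZH2 peak was found.

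Hoxb had the lowest EZH2 cover. Hoxb13, a gene of the caudal body and prostate, is separated from Hoxb9 by noncoding genes in the RefSeq order, and the remaining genes, Hoxb9 to Hoxb1, act in the hindbrain and trunk. The EZH2 peak at the Hoxb13 edge (96032201 to 96039600) was 7.4 kb wide, and 91.6 kb without a peak followed. The second (96131201 to 96145800) was 14.6 kb wide, 53rd of 3449. The third (96158201 to 96161600) was 3.4 kb wide, and the last 88.4 kb of the window, on the Hoxb1 side, had none.

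H3K27me3 in Hoxb followed the widest EZH2 peak almost edge to edge. The H3K27me3 peak there (96129401 to 96145400) was 16 kb wide, extended 1.8 kb past the EZH2 peak on the Hoxb13 side and stopped 0.4 kb short of its other edge. It covered 97.3% of that EZH2 peak, the highest share of the 20. An H3K27me3 peak of 0.4 kb (96039601 to 96040000) began at the base after the end of the EZH2 peak at the Hoxb13 edge and shared no base with it. The third EZH2 peak lay 12.8 kb from the nearest H3K27me3. Of the EZH2 length in Hoxb, 55.9% was inside H3K27me3 peaks, close to the share in Hoxd, but from 1 site in the place of a broad domain.

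The EZH2 peaks of the Hox windows were wide ones. Their median width was 6.0 kb (quartiles 4.6 and 10.6 kb, range 1.2 to 47.0 kb), against 2.4 kb over the whole list. Of the 20, 18 were wider than that median, as were 49.3% of all EZH2 peaks. At least 4.2 kb, the upper quartile of the list, was reached by 15 of the 20 and by 25.8% of all. Wider than 10 kb were 6 of the 20, against 3.86% of all (133 peaks). Of these 6, 3 lay in Hoxc and 1 in each of the other clusters. They also stood close together, with 16 of 20 within 10 kb of another EZH2 peak, against 28.8% of all, and a median distance of 5.1 kb to the nearest, against 37.6 kb. No test stands behind these differences, because peaks of 1 library that share a domain are not independent.

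**Figure D2:**
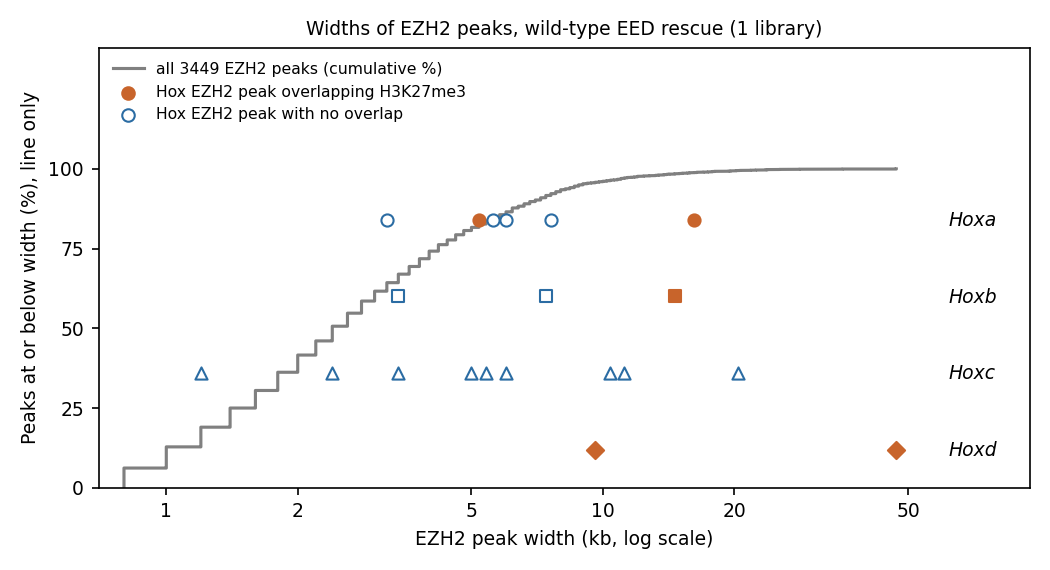
Widths of EZH2 peaks in the wild-type EED rescue on a log axis: the line is the cumulative percentage of all 3449 peaks, and points are the 20 peaks of the Hox windows in 1 row per cluster, whose height carries no value. Filled points overlap an H3K27me3 peak of the R302S rescue (5 peaks), and open points do not (15 peaks); the 3 Hoxc peaks wider than 10 kb are open.

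Whether EZH2 sites of the Hox clusters carried H3K27me3 in R302S cells was counted next. An overlap of at least 1 bp was found for 5 of the 20, which is 25% (95% Wilson interval 11.2% to 46.9%, counting error only). Over all EZH2 peaks the share was 27.7%, so the pooled Hox peaks were near the background. The clusters ranged from 2 of 2 in Hoxd through 2 of 6 in Hoxa and 1 of 3 in Hoxb to 0 of 9 in Hoxc. Elsewhere on the chromosomes of Hoxd, Hoxa and Hoxb the shares were 31.7%, 32.6% and 30.6%.

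Overlap was also set beside peaks of like width. Among Hox peaks of at least 4.2 kb, 5 of 15 overlapped (33.3%, interval 15.2% to 58.3%), against 56.5% of all EZH2 peaks of that width. Among the narrower ones it was 0 of 5 (interval up to 43.4%), against 17.8%. Of the 6 wider than 10 kb, 3 overlapped (50%, interval 18.8% to 81.2%), against 69.2% of all, and the 3 without overlap were all in Hoxc. Each interval contains the value of the whole list, so at these numbers no difference from it can be read for the pooled clusters. The intervals treat peaks as independent, which peaks that share a domain are not, and single clusters were not compared in this way. The 5 overlapping Hox peaks had a median width of 14.6 kb and the 15 others one of 5.6 kb, but their ranges crossed: the narrowest with H3K27me3 was 5.2 kb and the widest without it 20.4 kb.

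By length, 55.4 kb of the 188.8 kb of EZH2 was inside H3K27me3 peaks, which is 29.3%, against 33.6% over the whole list. Hoxd supplied 57.0% of this shared length. Without Hoxd the share was 18.0%, and without Hoxc it was 44.0%, so the pooled value depends on which cluster is counted. Where H3K27me3 was listed, it lay mostly within EZH2 sites: 6 of the 7 H3K27me3 peaks overlapped EZH2 (85.7%, interval 48.7% to 97.4%), against 77.3% of all H3K27me3 peaks, a value inside that interval. Of their length 92.6% was inside EZH2, against 68.0% over the list. The 4.4 kb outside consisted of 2.2 kb in Hoxd, between the EZH2 peaks, and of 1.8 and 0.4 kb in Hoxb. These values depend on the window edges. They do not count the 15.2 kb H3K27me3 peak beyond the Hoxa13 edge, which had 35.5% of its length inside EZH2.

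**Figure D3:**
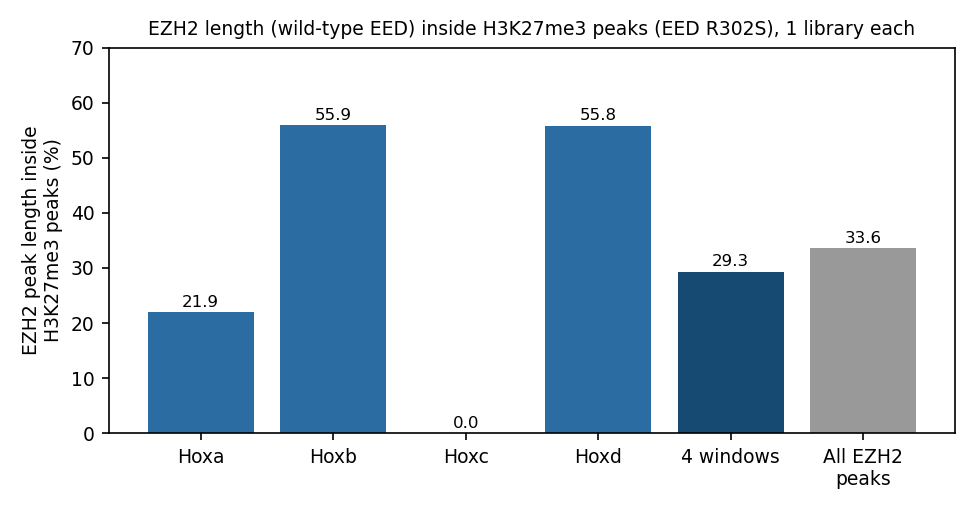
Percentage of EZH2 peak length (wild-type EED rescue) that lay inside H3K27me3 peaks (EED R302S rescue) in each Hox window, in the 4 windows together and over all 3449 EZH2 peaks, from 1 library each and without error bars. Hoxb (55.9%) and Hoxd (55.8%) lie above the value for all peaks (33.6%), and Hoxa (21.9%) and Hoxc (0%) below it.

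The last comparison set the paralogue 13 side of each cluster against its 3′ side. With windows cut at their middle, the Hoxd13 side held 55.6 kb of EZH2 and the Hoxd1 side 1.0 kb. In Hoxa the values were 33.4 kb on the Hoxa13 side and 10.4 kb in the other. In Hoxb they were 16.2 and 9.2 kb, with the widest peak lying across the middle. Hoxc went the other way, with 28.8 kb on the Hoxc13 side and 34.2 kb on the Hoxc4 side. H3K27me3 was listed on the paralogue 13 side alone in Hoxd (33.8 kb) and Hoxa (9.6 kb), and on both sides in Hoxb (11 and 5.4 kb).

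**Figure D4:**
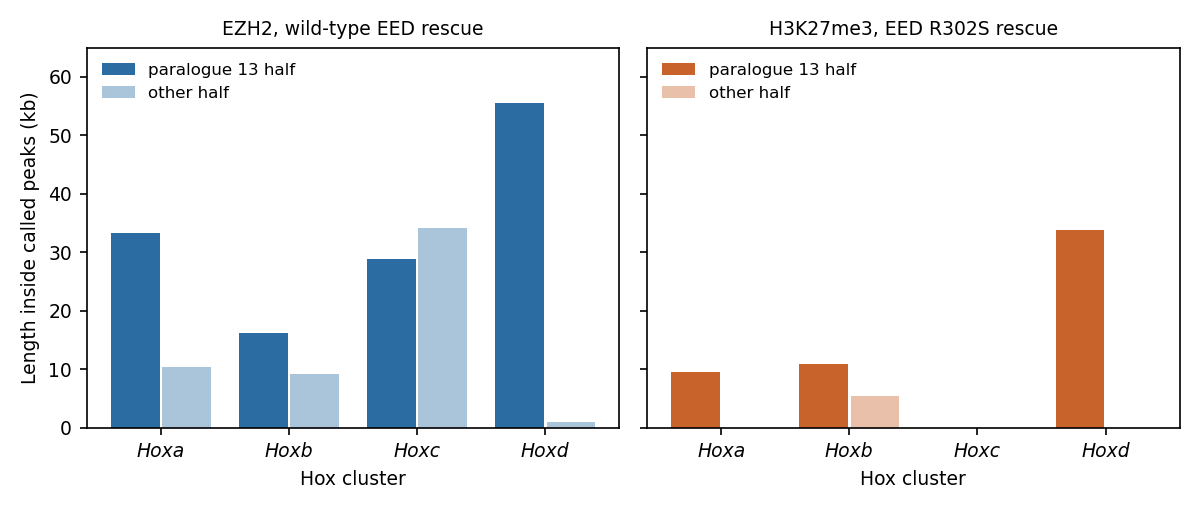
Length in kb inside called EZH2 peaks (left, wild-type EED rescue) and H3K27me3 peaks (right, EED R302S rescue) on the paralogue 13 side (dark) and the other side (pale) of the middle of each Hox window, 1 library each. In Hoxd 55.6 kb of EZH2 and all 33.8 kb of H3K27me3 lie on the Hoxd13 side, and Hoxc has EZH2 on both sides and no H3K27me3.

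The values changed with the stretch that was cut. A second cut was made at the middle of the stretch between the outermost EZH2 edges. Hoxd then had 29.4 kb of EZH2 in the part toward Hoxd13 and 27.2 kb in the other. That near-even split was fixed by the cut, because EZH2 filled 96.3% of the Hoxd stretch. The cut left out the 69.0 kb without EZH2 on the Hoxd1 side, so it does not test the EZH2 contrast between the window sides. H3K27me3 in Hoxd turned around, with 9.4 and 24.4 kb. Hoxb turned around too, with 7.4 and 18.0 kb of EZH2 and 0.4 and 16 kb of H3K27me3. Hoxc changed to 34.6 kb toward Hoxc13 and 28.4 kb toward Hoxc4. In Hoxa both lists stayed higher toward Hoxa13, with 24.9 against 18.9 kb of EZH2 and 9.6 kb against none of H3K27me3. In Hoxd the lists thus differed within the domain: EZH2 filled nearly all of both parts, and H3K27me3 lay mainly in the part farther from Hoxd13.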

How the data were processed

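Of the 6 samples, the peak lists of 2 were used: EZH2 with wild-type EED and H3K27me3 with EED R302S, 1 library each. The submitters' processing notes name build mm9, Bowtie 1.0.0 and deepTools. Peak caller, thresholds and input control: not given in the sources used here. The deposited lists hold positions only, with starts on a grid of 200 bp and ends 1 bp short of it. Each end was read as the final base of its bin, and positions are counted from 1. The smallest width and gap were 800 and 2200 bp for EZH2 and 400 and 1200 bp for H3K27me3, so the lists follow different limits. Depth is unknown for both libraries.

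Overlap needed at least 1 bp. It was computed in Python 3.11.15 with pandas 2.3.3 and numpy 2.4.6, tested on simulated data and checked against bedtools 2.31.1, with equal counts. Cover was cut at the window edges. Wilson intervals (95%, statsmodels 0.14.6) cover counting error only. Fixed windows ran from the start of each chromosome with EZH2 peaks to its last peak, and the Hox clusters were not left out. Promoters with 2 entries were given the median. Figures were drawn with matplotlib 3.10.9. Every peak touching a window is named, and genes only for order and promoters. The windows, genes and comparisons were chosen with earlier results of these data known. Alternatives were wider windows, stricter and looser overlap, matched limits, joining of near peaks, only the wider 50% of peaks, and other cuts of the window.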

Additional observations from a re-analysis of the deposited data

How the results depend on the processing

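No test was made, and settings were compared by value. The share of window length in EZH2 peaks (27.8%) was 18.4% with windows widened by 50 kb on each side, 30% with peaks closer than 5 kb joined and 24.5% without Hoxd. For H3K27me3 (8.79%) it was 6.94% in the widened windows and 4.81% without Hoxd. The 7 H3K27me3 peaks became 4 in the wider 50% of each list. The share of EZH2 length inside H3K27me3 (29.3%) was 18.0% without Hoxd and 44.0% without Hoxc; these omissions were chosen after seeing the data. In percentage points of cover, paralogue 13 side minus the other, EZH2 in Hoxc (-6.35) was -13.6 with peaks closer than 5 kb joined, 1.06 between the outer of 3 equal parts of the window and 8.16 between the 2 parts of the stretch between outer EZH2 edges. Over those same 2 parts EZH2 in Hoxb (6.36) was -16.4, H3K27me3 in Hoxb (5.09) was -24.1 and H3K27me3 in Hoxd (48.3) was -51.0, so that 1 cluster in place of 3 had more H3K27me3 at the 13 side. Only in Hoxd and Hoxa did EZH2 keep its direction over those 2 parts, but it was 7.48 in Hoxd (78.0) and 11.4 in Hoxa (30.7). Between the outer of 3 equal parts EZH2 in Hoxb was 10.1 and H3K27me3 in Hoxb 0.545, and in the widened windows H3K27me3 in Hoxa (12.8) was 19.8. By construction only the stretch between outer EZH2 edges leaves out the window ends without EZH2 peaks. In Hoxd this removes 69.0 kb on the Hoxd1 side, so that cut does not compare the 2 sides of the Hoxd window. The share of EZH2 peaks overlapping H3K27me3 (25%) ran from 15.0% to 45.5% in the 7 alternatives run for it, and was highest without Hoxc. All 7 lay inside its wide interval, which covers counting error only and does not measure dependence on settings. No paired analysis was possible because there was 1 library per group, and none could be left out. A filter on peak score was not possible, since the lists carry none. Sites below either threshold cannot be assessed.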
